A study of Mus musculus with 2 samples.

Results

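Fibronectin, tenascin-C, versican and the matricellular genes were described in liver non-parenchymal cells (NPCs) of 1 normal and 1 fibrotic mouse. The 10 genes were Fn1, Tnc, Vcan, Sparc, Sparcl1, Postn, Thbs1, Thbs2, Ctgf and Cyr61, chosen by name as secreted glycoproteins and proteoglycans that are not collagens. All 10 were listed in both tables, among the 20468 genes of the normal library and the 20473 of the fibrosis library. Both mice were male C57BL/6 mice, 8 weeks old at the start, and received intraperitoneal injections 2 times a week for 6 weeks. The normal (quiescent) mouse received olive oil, and the fibrosis mouse received CCl4, a hepatotoxin, in olive oil. The liver was perfused with collagenase, and most hepatocytes were spun out before loading, so that the hepatocyte droplets described here are those that escaped this step. Each mouse gave 1 droplet scRNA-seq library, so that no value had a biological replicate, no test between conditions was made, and each difference is one between 2 mice.

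Fibronectin is a fibrillar glycoprotein of plasma and of the provisional matrix, made by hepatocytes in soluble form and by matrix-producing cells in cellular form. Tenascin-C, periostin, SPARC, thrombospondins and the CCN proteins are called matricellular because they act on cells and on collagen assembly rather than as structural fibres. In liver, hepatic stellate cells (HSCs) and portal fibroblasts (PFs) are regarded as the sources of myofibroblasts (MFs), and CTGF (CCN2) and CYR61 (CCN1) are widely used readouts of TGF-beta and YAP/TEAD signalling. Reads here come from the 3' end of transcripts, so that the splice forms of fibronectin, tenascin-C and versican cannot be told apart.

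After filtering, 7471 normal and 6132 fibrosis cells remained, with medians of 4226 and 5775.5 unique molecular identifiers (UMIs) per cell, and 13 cell barcodes were found in both. Levels are given as UMIs of a gene per 10000 UMIs of all cells of a class, with exact 95% Poisson intervals in brackets, and ratios are fibrosis over normal with exact conditional intervals. All intervals cover counting error only. There were 47 normal and 120 fibrosis HSC/MF-like cells (median 6928 and 11375.5 UMIs), and 44 and 111 PF-like cells (7269.5 and 16818 UMIs). LSEC-like cells (liver sinusoidal endothelial cells) numbered 1682 and 1303, macrophage-like cells 487 and 723, and hepatocyte-like droplets 768 and 148. Other mesenchymal sub-clusters, with endothelial markers, cell cycle genes or immunoglobulin and macrophage genes (133, 96 and 62 cells in fibrosis), were left out of these classes. They enter only values given for whole clusters, for mesenchymal cells as a whole, or for such a sub-cluster where it is named. The class names were checked against marker lists. The 22 HSC/MF markers, of which 21 and 22 were detected, summed to 334.7 and 175.5 UMIs per 10000 in HSC/MF-like cells, against 27.05 and 44.38 in PF-like cells, and the 18 PF markers summed to 134.1 and 73.52 in PF-like cells, against 13.62 and 27.59 in HSC/MF-like cells. Immune genes (Ighm, Ccl5, Ccl4) stood among the leading genes of the normal HSC/MF-like cells, and S100a8 and S100a9 among those of a fibrosis HSC/MF-like sub-cluster.

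The B cell-like cells and the NK/T cell-like cells, pooled as lymphoid, were the measure of RNA that droplets take up from solution, at median depths of 3164.5 and 2555 UMIs. This background was not the same in both libraries. Alb (albumin), the hepatocyte transcript, stood at 101 UMIs per 10000 in normal lymphoid cells and at 11.2 in fibrosis. Sparc stood at 1.61 and 4.48, Fn1 at 0.953 and 1.83, Postn at 0.0204 and 0.431, Sparcl1 at 0.0119 and 0.197, Thbs1 at 0.0068 and 0.0805, and Thbs2 at 0.0068 and 0.113. Free RNA of hepatocytes was thus lower, and RNA of the matrix genes higher, in lymphoid cells of the fibrosis library. Of the 8 members with at least 20 UMIs in lymphoid cells, 5 were at least 2 times higher in fibrosis, against 9.42% of all genes. In any class, a member's level at or below that of lymphoid cells of the same library was therefore read as background. Lymphoid cells are a lower measure of it for some members. Erythroid-like cells of the fibrosis library (648 cells) had Sparc at 14.4 (13.6 to 15.1), Fn1 at 3.28 (2.94 to 3.65), Cyr61 at 0.810 and Ctgf at 0.537. All were above the lymphoid values, so that a level between the lymphoid and the erythroid-like value was not read as expression. Erythroid-like cells were shallower than lymphoid cells, with median depths of 2349 UMIs in normal and 1009.5 in fibrosis. Ighg1, Cyp3a11 and Serpina1d stood among the leading genes of the fibrosis ones. The part of depth in the erythroid-like levels was not tested.

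**Figure D1:**
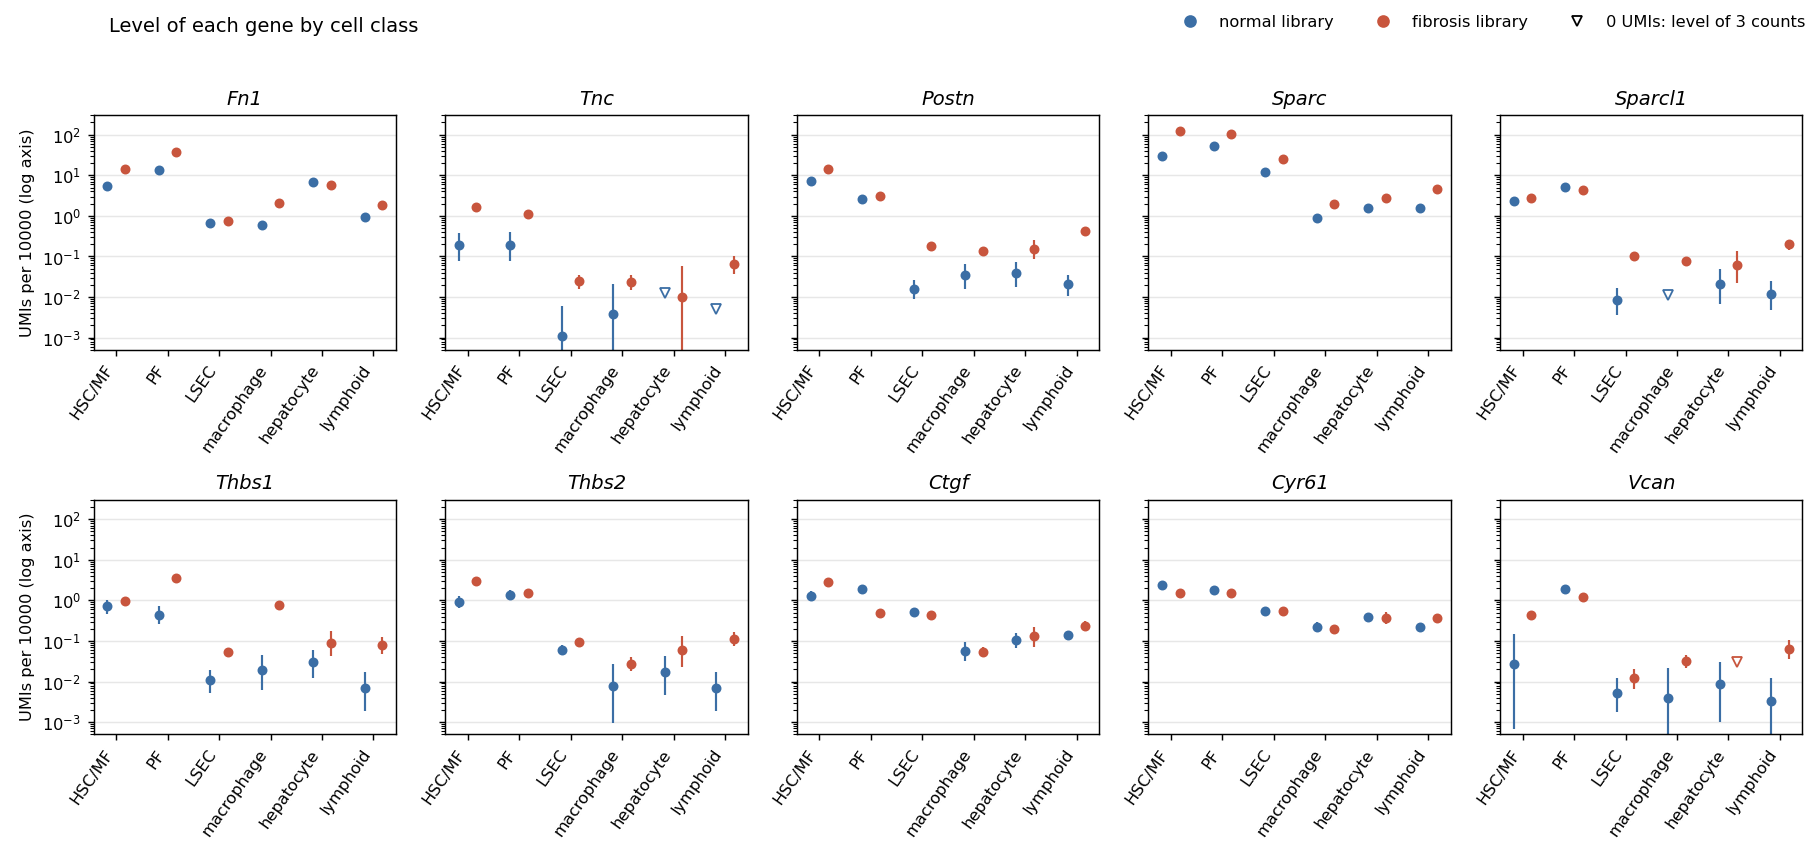
Level of each gene in UMIs per 10000 (log axis) in 6 cell classes of the normal library (blue) and the fibrosis library (red). Points are summed counts of 1 library with exact 95% Poisson intervals, cut where they pass the axis, and open triangles mark the level of 3 counts where none was found. Among these classes Tnc, Postn, Sparcl1 and Vcan had their highest levels in HSC/MF-like or PF-like cells, and Sparc stood at 12 and 24.6 in LSEC-like cells.

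Among genes with at least 20 UMIs over both libraries, a gene was counted as higher in fibrosis at a ratio of 2 or more and as lower at 0.5 or less. Of the 10 members, 6 were higher in HSC/MF-like cells (11.1% of all 9046 genes) and 0 were lower (6.61% of all genes). In PF-like cells 4 of 10 were higher (17.2% of all 10504 genes) and 1 was lower (7.35%). There summed hepatocyte markers stood at 121.8 in normal and 13.25 in fibrosis, summed erythroid markers at 66.78 and 0.371, and their part in the ratios was not tested. In macrophage-like cells 8 of 10 were higher (7.33% of all genes) and 0 lower (10.1%), and in LSEC-like cells 5 of 9 were higher (8.79%) and 0 lower (8.28%). In hepatocyte-like droplets 1 of 5 was higher (17.0%) and 0 lower (7.23%). The counts in macrophage-like and LSEC-like cells rested mostly on levels at or below those of lymphoid cells: with the lymphoid level subtracted they were 2 and 0, and with the erythroid-like level subtracted 1 and 0. In HSC/MF-like cells the count was 6 with either subtraction. Of these, Ctgf stood near the limit of 2 with the erythroid-like level subtracted, and Vcan had 1 normal UMI in all. Summed hepatocyte markers stood at 154.1 and 12.99 UMIs per 10000 in HSC/MF-like cells and summed plasma cell markers at 68.55 and 8.499, and their part in the ratios was not tested. The median ratio of all genes was not 1 in every class. On the log2 scale it was 0.07 in HSC/MF-like cells and in LSEC-like cells, -0.03 in macrophage-like cells, 0.19 in PF-like cells and 0.30 in hepatocyte-like droplets, against medians over the members tested of 1.27, 1.03, 1.90, 0.21 and 0.31.

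**Figure D2:**
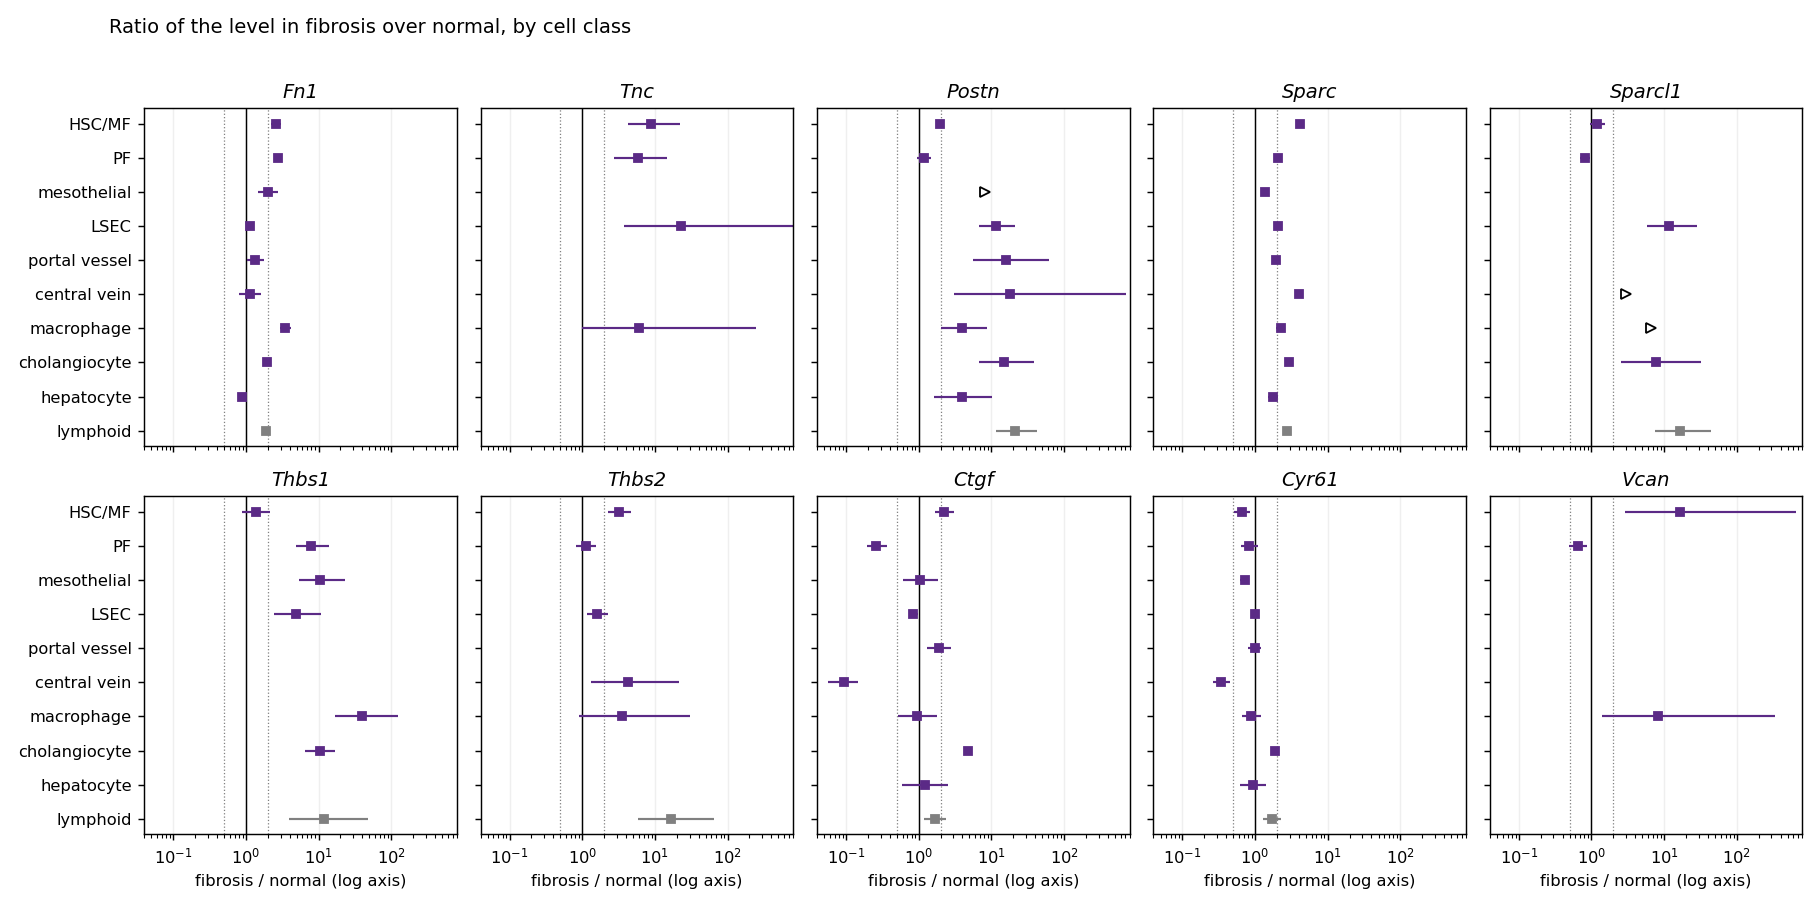
Ratio of the level in fibrosis over normal (log axis) for each gene in those of 10 cell classes with at least 20 UMIs, with exact 95% intervals for counting error; intervals that pass the axis are cut at its end, grey squares are lymphoid cells, and open triangles are ratios computed against 3 counts where the normal library had none. Dotted lines mark ratios of 0.5 and 2. Ctgf was 2.24 times higher in HSC/MF-like cells, 0.263 times in PF-like cells and 0.0932 times in central vein-like cells.

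The promoters that RefSeq gives for the members (GRCm38.p6, from 250 bases before to 50 after a transcript start) were available for 6 genes, of which Tnc and Postn had 2 starts each. They are shown for the 3 genes higher in HSC/MF-like cells whose window held the motif, with the SMAD-binding core CAGACA (or its complement TGTCTG) in capitals, and for Cyr61, with the TEAD core GGAATG (or CATTCC) in capitals.
Tnc, chr4:64046966-64047265, minus strand: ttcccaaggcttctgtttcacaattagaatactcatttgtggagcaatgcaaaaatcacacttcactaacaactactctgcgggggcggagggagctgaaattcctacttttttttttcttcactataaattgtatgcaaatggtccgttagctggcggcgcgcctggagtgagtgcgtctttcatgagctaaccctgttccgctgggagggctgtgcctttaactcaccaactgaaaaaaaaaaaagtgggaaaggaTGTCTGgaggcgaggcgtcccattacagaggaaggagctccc
Sparc, chr11:55420031-55420330, minus strand: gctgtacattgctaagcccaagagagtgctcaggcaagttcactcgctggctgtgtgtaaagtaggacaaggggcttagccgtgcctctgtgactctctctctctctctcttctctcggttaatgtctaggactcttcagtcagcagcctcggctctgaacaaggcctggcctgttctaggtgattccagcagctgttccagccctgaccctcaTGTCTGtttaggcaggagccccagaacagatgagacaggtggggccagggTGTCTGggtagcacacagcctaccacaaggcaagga
Thbs2, chr17:14694213-14694512, minus strand: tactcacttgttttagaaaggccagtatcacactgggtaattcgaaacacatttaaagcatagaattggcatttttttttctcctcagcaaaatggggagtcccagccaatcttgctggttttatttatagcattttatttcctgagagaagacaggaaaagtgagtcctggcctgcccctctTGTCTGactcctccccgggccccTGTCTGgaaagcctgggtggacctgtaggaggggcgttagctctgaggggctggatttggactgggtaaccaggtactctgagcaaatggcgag
Cyr61, chr3:145649936-145650235, minus strand: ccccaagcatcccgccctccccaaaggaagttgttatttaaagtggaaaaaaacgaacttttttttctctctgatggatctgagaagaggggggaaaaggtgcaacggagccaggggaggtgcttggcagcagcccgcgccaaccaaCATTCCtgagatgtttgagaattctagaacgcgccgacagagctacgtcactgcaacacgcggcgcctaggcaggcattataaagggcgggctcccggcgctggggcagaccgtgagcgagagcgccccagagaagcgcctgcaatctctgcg
Both strands were searched. CAGACA was found in both Tnc windows, in Sparc and in Thbs2, and not in the Postn, Cyr61 or Vcan windows, while 21% of all 32851 promoters held it. GGAATG was found in the Cyr61 window alone among the 6 genes, and in 14.7% of all promoters. The SP1 box GGGCGG stood in the Tnc, Cyr61 and Vcan windows (35.7% of all), and the AP-1 site TGANTCA (7.81%) and the CArG box (1.63%) stood in none. The matches did not overlap each other. A match is a string of letters in this window and was not tested as a site.

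Fn1 (fibronectin; chromosome 1, 71585520 to 71653200, minus strand, GRCm38) had its high levels in a few groups of cells, and these groups differed between the libraries. In HSC/MF-like cells it was 5.39 (4.68 to 6.19) in normal and 14.1 (13.4 to 14.7) in fibrosis, a ratio of 2.60 (2.25 to 3.02). After each cell was thinned to 1000 UMIs, which left out no cell of this class, 59.6% of normal and 70.0% of fibrosis HSC/MF-like cells had an Fn1 UMI (91.5% and 90.8% unthinned), against 10.2% and 17.2% of lymphoid cells. In PF-like cells Fn1 was 13.2 (12 to 14.5) and 36.8 (36 to 37.6), a ratio of 2.78 (2.54 to 3.06). These pooled PF-like values hid a split. The 82 fibrosis cells of a sub-cluster led by Mfap4, Ltbp2 and Dpt had an Fn1 level of 6.62 (6.19 to 7.07), and the 29 cells of a deeper sub-cluster led by Fndc1 and Cxcl5 had a level of 84.4 (82.5 to 86.4). Without the Fndc1-led cells the PF-like ratio turned to 0.501, below 1. Here, and in each ratio given without these cells, only fibrosis cells were removed and all 44 normal PF-like cells were kept. In the normal library, 3 of the 44 PF-like cells held 55.7% of the class's Fn1 UMIs, and 3 cells were at or above 50 UMIs per 10000, while the median PF-like cell was at 2.21. The median PF-like cell of the fibrosis library was at 8.22, above the normal one, and without the 3 cells of each library with most Fn1 UMIs the pooled ratio was 4.28. In fibrosis 19 of 111 PF-like cells reached that level, against 0 of 120 HSC/MF-like cells.

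The Fndc1-led sub-cluster differed from the Mfap4-led cells in the other members too. Thbs1 was 5.74 against 2.23, Cyr61 2.82 against 0.696 and Vcan 1.88 against 0.838, while Sparc was 65.2 against 133, Postn 1.23 against 4.26, Thbs2 0.272 against 2.34, Tnc 0.555 against 1.5 and Sparcl1 0.0709 against 6.88. The Fndc1-led cells thus stood higher in Fn1, Thbs1, Cyr61 and Vcan and lower in the other members, Ctgf included, at 0.331 (0.220 to 0.478) against 0.598 (0.475 to 0.745), where the intervals met. Only 1 of the leading 10 genes of this sub-cluster, Fndc1, was a PF marker. Members and the fixed lists had been held out of the genes used for clustering. Its median depth was 31795 UMIs, against 13989 in the Mfap4-led cells, and the part of depth in these differences was not tested.

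**Figure D3:**
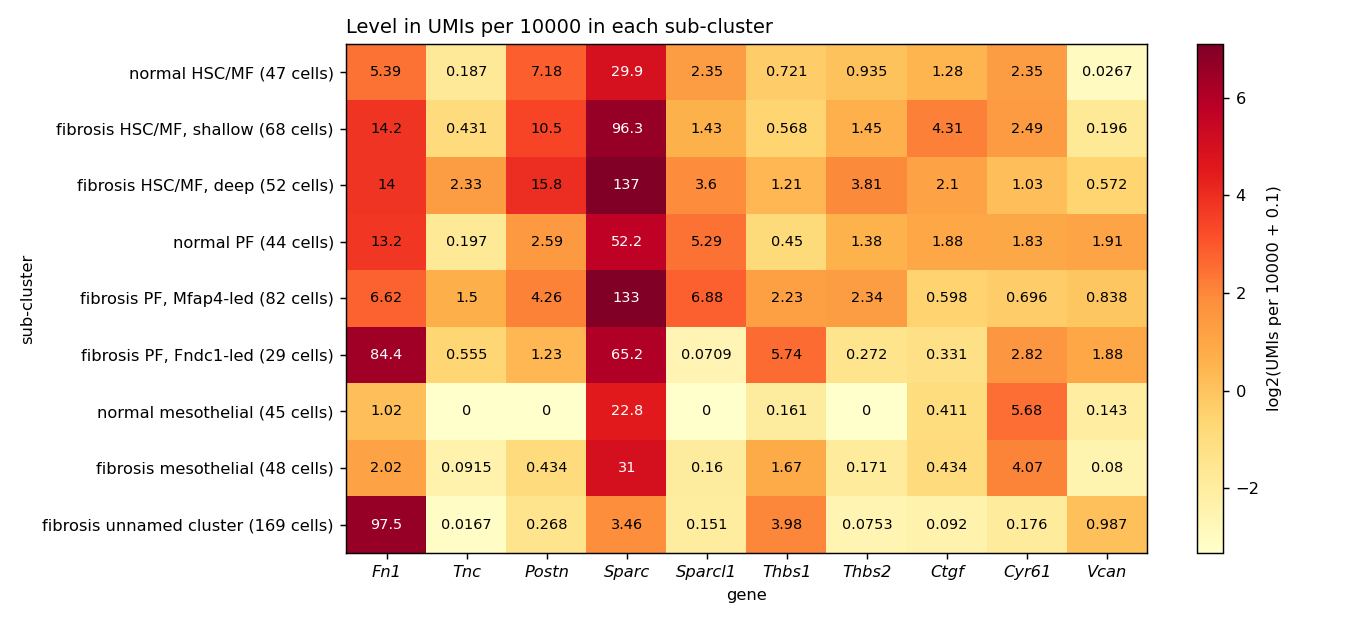
Level of each gene (columns; colour is log2 of UMIs per 10000 plus 0.1, numbers are UMIs per 10000) in the named mesenchymal sub-clusters of each library (HSC/MF, PF and mesothelial) and in the unnamed cluster of the fibrosis library (rows, with cell numbers). Fn1 stood at 84.4 in the Fndc1-led PF-like cells and at 97.5 in the unnamed cluster, against 6.62 in the Mfap4-led PF-like cells.

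The highest Fn1 level of any group of the fibrosis library was found outside the mesenchyme. A cluster of 169 fibrosis cells, whose leading genes included Itgam, Ccl9, Clec4e and Olr1, had an Fn1 level of 97.5 (95.7 to 99.2) and held 31.9% of all Fn1 UMIs in 2.76% of the cells. It stayed without a name because none of its leading 10 genes was in a marker list. All 14 monocyte markers were raised in it (summed level 110.3, against 26.28 in the other cells) and 0 of the 22 HSC/MF markers. Of other lists, 8 of 12 dendritic cell, 6 of 11 neutrophil, 4 of 10 scar-associated macrophage and 3 of 14 Kupffer cell markers were raised. Fn1 was detected in 78.7% of its cells, and 79 cells reached 50 UMIs per 10000. The cluster also carried Thbs1 at 3.98 (3.63 to 4.35) and Vcan at 0.987 (0.817 to 1.18), and its Sparc level of 3.46 was below that of lymphoid cells. The fibrosis monocyte-like cluster (241 cells) had an Fn1 level of 8.65 (8.25 to 9.07). The normal library had neither cluster. There, 5 cells in all reached 50 UMIs of Fn1 per 10000, against 123 in fibrosis.

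Macrophage-like cells had a pooled Fn1 ratio of 3.50 (2.97 to 4.15), from 0.593 to 2.08. All 487 normal cells of this class were Kupffer cell-like, while the 723 fibrosis cells were 232 Kupffer cell-like and 491 scar-associated macrophage-like cells, named by a list that holds Trem2 and Gpnmb. Within Kupffer cell-like cells the level was 0.593 (0.503 to 0.694) and 0.607 (0.517 to 0.708), a ratio of 1.02 (0.816 to 1.29), and both values were below those of lymphoid cells. Scar-associated macrophage-like cells stood at 2.59 (2.48 to 2.71), of which 3 cells held 25.3%. Their thinned share of cells with an Fn1 UMI was 11%, below the 17.2% of lymphoid cells, and their level was below the 3.28 of erythroid-like cells. In LSEC-like cells Fn1 was 0.660 and 0.747, also below the lymphoid level.

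Hepatocyte-like droplets had Fn1 at 6.68 (6.35 to 7.02) in normal and 5.85 (5.38 to 6.35) in fibrosis, a ratio of 0.876 (0.795 to 0.964), well above the lymphoid levels, but 0.465 with the erythroid-like levels subtracted. The normal droplets formed 2 clusters, one of 641 shallow droplets (median 1313 UMIs) with Fn1 at 2.59 and one of 127 deeper droplets (7767 UMIs) with Fn1 at 10.3 (9.72 to 10.8), and in fibrosis 80 shallow droplets (1313 UMIs) stood at 4.96 (3.96 to 6.14) and 68 deeper ones (4932.5 UMIs) at 6.04 (5.52 to 6.6). The shallow clusters were thus higher and the deeper ones lower in fibrosis, and 3 droplets held 39.8% of the Fn1 UMIs of the fibrosis class. By cluster, 3 droplets held 54.8% of the 84 UMIs of the shallow and 46.5% of the 492 UMIs of the deeper fibrosis droplets. Whether either difference holds without them was not tested. Hepatocyte markers summed to 1496 and 722.9 UMIs per 10000 in the class, and their part in the ratio was not tested. Set against albumin, Fn1 counted 1.06 UMIs per 100 Alb UMIs in normal hepatocyte-like droplets, 1.01 in LSEC-like, 0.893 in macrophage-like and 0.940 in lymphoid cells. It was 4.21 in normal cholangiocyte-like, 11.2 in normal HSC/MF-like and 36.7 in normal PF-like cells. In fibrosis the ratio was 2.63 in hepatocyte-like droplets, 11.8 in cholangiocyte-like, 13 in LSEC-like, 16.4 in lymphoid and 45.5 in macrophage-like cells. The source of the Fn1 RNA in these classes was not tested. Over the whole library, hepatocyte-like droplets held 21.2% of the Fn1 UMIs in normal and 1.58% in fibrosis, and mesenchymal cells 17.1% and 44.3%. The share of cells changed with it, from 10.3% to 2.41% for the hepatocyte-like droplets and from 3.44% to 9.3% for the mesenchymal cells, so that fewer or more cells captured and less or more RNA per cell cannot be told apart in these shares.

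**Figure D4:**
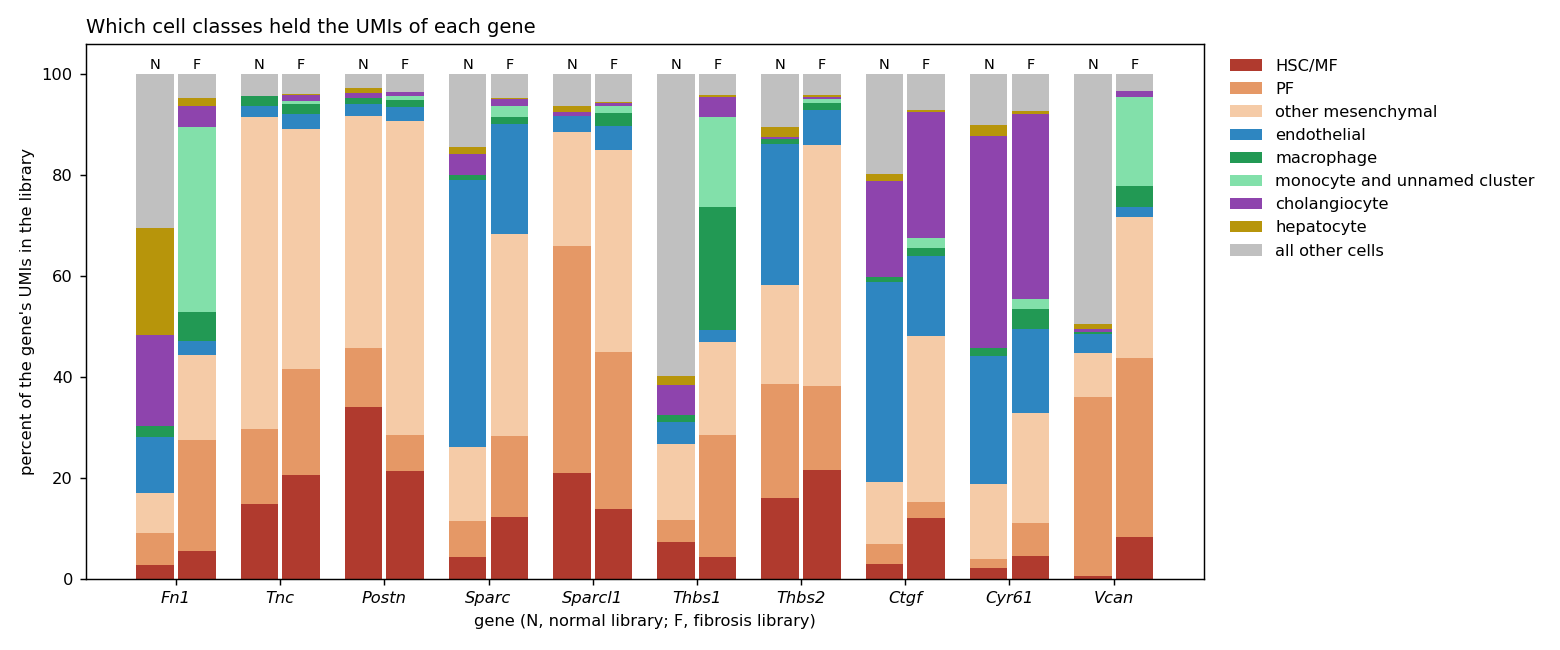
Percent of each gene's UMIs in a library that lay in each group of cells (stacked bars to 100%, N for the normal and F for the fibrosis library). The mesenchymal groups held 91.5% and 89.2% of Tnc and 91.6% and 90.7% of Postn UMIs, whereas their share of Sparc was 26.1% in normal and 68.3% in fibrosis.

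Tnc (tenascin-C; chromosome 4, 63959785 to 64047015, minus strand), a hexameric glycoprotein of wounds and developing tissue, had 47 UMIs in the normal library. The mesenchymal clusters held 91.5% of them and 89.2% of the fibrosis UMIs, but this counts sub-clusters with endothelial markers, which held 38.3% of the normal UMIs. One of these, 14 cells led by Ccl21a and Mmrn1, had the highest normal Tnc level of the sub-clusters examined, 1.55 (0.867 to 2.55), from 15 UMIs of which 86.7% lay in 3 cells. The HSC/MF-like level was 0.187 (0.0752 to 0.385) from 7 UMIs in normal and 1.66 (1.46 to 1.89) in fibrosis, a ratio of 8.89 (4.25 to 22.4). In PF-like cells it was 0.197 and 1.14, a ratio of 5.77 (2.76 to 14.5), where all 7 normal UMIs lay in 3 cells. Among the fibrosis HSC/MF-like cells, Tnc was 2.33 (2.03 to 2.66) in the 52 deep cells led by Ogn and Robo2 and 0.431 (0.270 to 0.652) in the 68 shallow cells led by Angptl6 and Vipr1. LSEC-like (0.0242) and macrophage-like cells (0.0233) of the fibrosis library were below the 0.0644 of lymphoid cells, so that their ratios of 22.6 and 6.05, each against 1 normal UMI, were read as background.

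Vcan (versican; chromosome 13, 89655312 to 89742509, minus strand), a large hyaluronan-binding proteoglycan, was found mainly in PF-like and dendritic cell-like cells of the normal library, which held 35.4% and 46.9% of its UMIs. Its level in PF-like cells was 1.91 (1.48 to 2.42) in normal, of which 3 cells held 60.3%, and 1.24 (1.10 to 1.40) in fibrosis, a ratio of 0.649 (0.496 to 0.860). Without the Fndc1-led cells the ratio was 0.438, past the limit for lower, and without the 3 cells of each library with most Vcan UMIs it was above 1, at 1.245. Normal HSC/MF-like cells had 1 Vcan UMI in all, against 64 in fibrosis (0.440, 0.339 to 0.562), a ratio of 16.5 (2.85 to 660). This interval is wide. Without the 3 cells with most UMIs of each library, no normal UMI was left, and Vcan was at least 4.02-fold higher, against 3 counts. The normal dendritic cell-like cluster had Vcan at 0.242 (0.194 to 0.297), against 0.0116 (0.0014 to 0.0419) in fibrosis. The leading genes of these clusters differed: Lyz2, S100a4 and Ccr2 were among the leading genes of the normal one and not of the fibrosis one, and only the fibrosis library had a separate monocyte-like cluster. The unnamed cluster of the fibrosis library held 15.4% of that library's Vcan UMIs.

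Sparc (chromosome 11, 55394500 to 55423183, minus strand) encodes a collagen-binding glycoprotein that takes part in collagen secretion and fibril assembly. It was detected in every HSC/MF-like and PF-like cell of both libraries. Among HSC/MF-like cells its level was 29.9 (28.2 to 31.7) and 123 (121 to 125), a ratio of 4.11 (3.87 to 4.37). In PF-like cells it was 52.2 (49.9 to 54.6) and 106 (105 to 108), a ratio of 2.04 (1.94 to 2.14), which was 1.89 with the erythroid-like level subtracted, 1.79 after division by the median ratio of all genes and 1.96 after removal of the top 5% of cells by Scrublet doublet score. Normal PF-like cells thus stood above normal HSC/MF-like cells. In fibrosis the pooled order was the other way, but the 82 Mfap4-led PF-like cells, at 133 (131 to 135), stood above the pooled HSC/MF-like cells, and without the Fndc1-led cells the PF-like ratio was 2.54. Mesothelial-like cells stood at 22.8 and 31.0, a ratio of 1.36 (1.27 to 1.45).

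Endothelium was the other place of high Sparc levels. LSEC-like cells had 12 (11.8 to 12.3) UMIs per 10000 in normal and 24.6 (24.3 to 24.9) in fibrosis, a ratio of 2.04 (2 to 2.09), and the thinned share of cells with a Sparc UMI was 61.8% and 85.8%, against 10.2% and 40.4% of lymphoid cells. With the lymphoid level subtracted the ratio was 1.93, just under 2. The erythroid-like level went from 3.4 (3.15 to 3.66) to 14.4, and with it subtracted the LSEC-like ratio was 1.18, so that the size of the Sparc difference in endothelium depends on the measure of background. The fibrosis zone 1-like cells included 175 cells led by haemoglobin genes, whose part in the zone 1-like Sparc ratio was not tested. By zone the ratio was 2.25 (2.16 to 2.34) for zone 1-like cells, 1.86 (1.80 to 1.93) for those of zone 2/3, and 1.93 (1.81 to 2.05) in portal vessel-like cells. Central vein-like cells (136 and 215 cells), which had the lowest normal level of these at 4.72 (4.27 to 5.20), reached 18.8 (18.2 to 19.4), a ratio of 3.98 (3.60 to 4.42). With the erythroid-like level subtracted the ratios were 1.39 in zone 1-like, 0.988 in zone 2/3, 0.557 in portal vessel-like and 3.36 in central vein-like cells, so that those of zone 2/3 and the portal vessel-like cells were below 1. The erythroid-like cells were shallower than the endothelial ones, most of all in fibrosis, and the part of this in the subtracted ratios was not tested. HSC/MF markers summed to 2.22 and 4.39 UMIs per 10000 in LSEC-like cells, and their part in the Sparc difference was not tested. LSEC-like cells held 42.8% of the Sparc UMIs of the normal library and 18.1% of those in fibrosis, and mesenchymal cells 26.1% and 68.3%. The fibrosis mesenchymal cells include sub-clusters with endothelial markers, which held 13691 and 7534 of the library's 145712 Sparc UMIs. LSEC-like cells were 22.5% of normal and 21.3% of fibrosis cells, and mesenchymal cells 3.44% and 9.3%. Macrophage-like cells stood at 0.889 and 2.01, below lymphoid cells in both libraries, so that their ratio of 2.26 was read as background.

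Sparcl1 (SPARC-like 1, or hevin; chromosome 5, 104079111 to 104113733, minus strand), the nearest relative of Sparc, did not follow it. Its level was 2.35 (1.88 to 2.90) and 2.84 (2.57 to 3.12) in HSC/MF-like cells, a ratio of 1.21 (0.957 to 1.54), and 5.29 (4.56 to 6.10) and 4.24 (3.97 to 4.52) in PF-like cells, a ratio of 0.802 (0.685 to 0.944). Without the Fndc1-led cells, in which 4 of 29 had a Sparcl1 UMI, the PF-like ratio was 1.30. In LSEC-like (0.102) and macrophage-like cells (0.0767) of the fibrosis library it was below the 0.197 of lymphoid cells.

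Postn (periostin; chromosome 3, 54361109 to 54391037, plus strand), a matricellular protein that binds collagen and integrins, stood higher in HSC/MF-like than in PF-like cells of both libraries. Its HSC/MF-like level was 7.18 (6.35 to 8.10) in normal and 13.9 (13.3 to 14.5) in fibrosis. The ratio of 1.94 (1.71 to 2.21) was just under the limit of 2, and 2.05 without the 3 cells with most UMIs of the gene. In PF-like cells it was 2.59 (2.09 to 3.17) and 3.08 (2.85 to 3.32), a ratio of 1.19 (0.957 to 1.5). The 3 highest normal PF-like cells held 64.1% of the class's Postn UMIs, and without the 3 highest cells of each library the ratio was 2.57. LSEC-like cells had ratios of 11.5 (6.78 to 20.9) and hepatocyte-like droplets of 3.97 (1.63 to 10.3), but their fibrosis levels of 0.185 and 0.152 were below the 0.431 of lymphoid cells.

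Thbs1 (thrombospondin 1; chromosome 2, 118111876 to 118127133, plus strand) and Thbs2 (thrombospondin 2; chromosome 17, 14665500 to 14694235, minus strand) encode trimeric glycoproteins that inhibit angiogenesis, and thrombospondin 1 is also known as an activator of latent TGF-beta. The pair overlapped in part: in the Mfap4-led PF-like cells of the fibrosis library 70.7% of cells had a Thbs1 UMI and 86.6% a Thbs2 UMI. The level of Thbs2 in HSC/MF-like cells was 0.935 (0.651 to 1.30) and 2.98 (2.71 to 3.28), a ratio of 3.19 (2.26 to 4.64), and in PF-like cells 1.38 (1.02 to 1.82) and 1.54 (1.38 to 1.71), a ratio of 1.12 (0.826 to 1.54), or 1.7 without the Fndc1-led cells. The deep HSC/MF-like cells of the fibrosis library stood at 3.81 (3.43 to 4.23) and the shallow ones at 1.45 (1.14 to 1.82). Normal LSEC-like cells held 25.7% of that library's Thbs2 UMIs, at a level of 0.0601 (0.0454 to 0.0781), above the 0.0068 of lymphoid cells, and in fibrosis at 0.0970, below the 0.113 of lymphoid cells.

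Thbs1 was low in PF-like and mesothelial-like cells of the normal library. It was higher in those of the fibrosis library and in its scar-associated macrophage-like cells. The normal mesenchyme was not low throughout. Its 14 cells led by Ccl21a and Mmrn1 had Thbs1 at 2.27 (1.42 to 3.44), from 22 UMIs of which 95.5% lay in 3 cells. In PF-like cells Thbs1 was 0.450 (0.257 to 0.731) and 3.59 (3.34 to 3.85), a ratio of 7.98 (4.88 to 14), and 4.96 without the Fndc1-led cells. In mesothelial-like cells it was 0.161 and 1.67, a ratio of 10.4 (5.32 to 23.2). HSC/MF-like cells had 0.721 (0.475 to 1.05) and 0.982 (0.828 to 1.16), a ratio of 1.36 (0.898 to 2.14). There 3 of the 47 normal cells held 88.9% of the UMIs, and without the 3 highest cells of each library the ratio was 6.15. In macrophage-like cells Thbs1 went from 0.0192 (5 UMIs) to 0.770 (0.717 to 0.825), a ratio of 40.0 (17.1 to 124), and the share of cells with a UMI after thinning to 1000 UMIs, a depth at which the 5 normal UMIs were lost, was 6.36% in fibrosis, against 0.850% of lymphoid cells. This ratio joined different clusters. Kupffer cell-like cells of the fibrosis library had 0.0637 (0.0371 to 0.102), below the 0.0805 of lymphoid cells, and scar-associated macrophage-like cells, which had no normal counterpart, had 1.02 (0.946 to 1.09). Neutrophil-like cells had Thbs1 at 0.782 (0.575 to 1.04) in normal and 1.05 (0.775 to 1.38) in fibrosis. Dendritic cell-like cells had 0.430 in normal, of which 3 cells held 72.5%, and 0.162 in fibrosis, a ratio of 0.378 (0.243 to 0.567).

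Ctgf (Ccn2; chromosome 10, 24595442 to 24598683, plus strand) and Cyr61 (Ccn1; chromosome 3, 145646976 to 145649981, minus strand) are the CCN members. In HSC/MF-like cells Ctgf was 1.28 (0.945 to 1.70) and 2.87 (2.60 to 3.16), a ratio of 2.24 (1.66 to 3.09), while Cyr61 was 2.35 (1.88 to 2.90) and 1.54 (1.34 to 1.75), a ratio of 0.655 (0.510 to 0.848), or 0.997 counted per cell and 0.355 with the erythroid-like level subtracted. The call for Ctgf did not hold for whole clusters, which include sub-clusters with markers of other cells and gave 1.14. Within the fibrosis HSC/MF-like cells both genes stood higher in the 68 shallow cells (Ctgf 4.31, 3.76 to 4.91, and Cyr61 2.49, 2.07 to 2.96) than in the 52 deep cells (2.10, 1.81 to 2.41, and 1.03, 0.833 to 1.25), the reverse of Tnc, Thbs2, Postn and Sparc. In PF-like cells Ctgf was 1.88 (1.46 to 2.39) in normal and 0.495 (0.406 to 0.597) in fibrosis, a ratio of 0.263 (0.192 to 0.362), and counted per cell it was 0.639. The fibrosis value was below the 0.537 of erythroid-like cells. Of the normal PF-like Ctgf UMIs, 47.8% lay in 3 cells. Cyr61 in PF-like cells was 1.83 and 1.52, a ratio of 0.832 (0.636 to 1.10), and 0.381 without the Fndc1-led cells or 0.465 with the erythroid-like level subtracted.

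The CCN genes were low in LSEC-like cells as a whole and higher in some endothelial groups. LSEC-like cells had Ctgf at 0.524 (0.479 to 0.573) and 0.445 (0.406 to 0.487) and Cyr61 at 0.553 (0.506 to 0.603) and 0.555 (0.511 to 0.601), ratios of 0.849 and 1. These pooled values were above the lymphoid levels of 0.143 and 0.238 for Ctgf and 0.217 and 0.371 for Cyr61, but the fibrosis values were not above those of erythroid-like cells. The class also holds 506 normal and 340 fibrosis cells of sub-clusters given no zone name, some of them led by haemoglobin or cell cycle genes. A zone 1-like sub-cluster of 175 fibrosis cells was led by haemoglobin genes too and stayed in the zone-named values. Among the cells with no zone name, 119 normal cells led by Esm1 had Ctgf at 2.37 (2.04 to 2.73), from 188 of the 488 UMIs of the class. With the zone-named cells alone the Ctgf ratio was 1.02. Ctgf in zone 1-like cells was 0.483 and 0.507, a ratio of 1.05 (0.847 to 1.30). Zone 2/3-like cells had 0.279 (0.231 to 0.335) and 0.156 (0.116 to 0.207), a ratio of 0.559 (0.392 to 0.787), and the fibrosis value was below that of lymphoid cells. Central vein-like cells had the lowest Ctgf and Cyr61 ratios of these endothelial groups. Their Ctgf level was 1.21 (0.993 to 1.47) in normal and 0.113 (0.0717 to 0.170) in fibrosis, below that of lymphoid cells, a ratio of 0.0932 (0.0566 to 0.147). Their Cyr61 level was 1.34 (1.11 to 1.61) and 0.462 (0.374 to 0.566), a ratio of 0.345 (0.260 to 0.456), where the fibrosis value was below the 0.810 of erythroid-like cells. The class's own 8 central vein markers summed to 81.99 and 40.72 UMIs per 10000 and the mesothelial markers to 2.464 and 0.4231, so that the 136 and 215 cells were not alike in their markers, and the part of this in the ratios was not tested. Portal vessel-like cells had Ctgf at 0.271 and 0.519, a ratio of 1.92 (1.31 to 2.80), and Cyr61 at 1.52 and 1.5. Their fibrosis Ctgf level lay between the lymphoid and the erythroid-like values, as did that of zone 1-like cells, and was not read as expression. The 20 immediate early and dissociation response genes, which move with tissue handling and of which several share inducers with the CCN genes, summed to 128.3 and 146.6 UMIs per 10000 in central vein-like cells, to 94.4 and 85.21 in HSC/MF-like and to 66.04 and 92.53 in PF-like cells. Their part in the CCN values was not tested.

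Other matricellular genes were counted over a list of 25. In HSC/MF-like cells 7 of 15 tested were at least 2 times higher in fibrosis (Wisp1, Fstl1, Fbln1, Fbln2, Fbln5, Efemp2 and Matn2) and 1 lower (Efemp1), against 11.1% and 6.61% of all genes, with Fstl1, which encodes a follistatin-like relative of SPARC, going from 3.07 to 13.7, a ratio of 4.46 (3.70 to 5.43), and Efemp1, which encodes fibulin-3, from 4.75 to 1.67, a ratio of 0.351 (0.288 to 0.429). In PF-like cells 3 of 17 were higher, a share near the 17.2% of all genes, and 8 were lower, against 7.35%. Fbln1, which encodes fibulin-1, was 16.5 in normal and 0.866 in fibrosis, a ratio of 0.0525 (0.0444 to 0.0620). The median log2 ratio of the list was 0.94 in HSC/MF-like and -0.60 in PF-like cells. The rise was not limited to stellate cells. LSEC-like cells also had 7 of 15 higher (8.79% of all genes) and 2 lower (8.28%), with a list median of 0.84. Fstl1, Fbln1, Fbln2, Fbln5 and Matn2 were among the higher genes of both classes. In macrophage-like cells 5 of 13 were higher (7.33% of all genes) and 2 lower (10.1%). Lymphoid cells had 9 of 14 higher (9.42%), Fstl1 and Fbln5 among them, and 3 lower (8.78%), Fbln2 among them. Spp1, which encodes osteopontin, was 1.26 in normal and 15.8 in fibrosis macrophage-like cells, a ratio of 12.5 (11.2 to 14), against 1.2 and 2.74 in lymphoid cells. This ratio, too, set normal Kupffer cell-like cells against a class that was mostly scar-associated macrophage-like in fibrosis.

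Receptors of the 10 proteins were counted over a list of 24. In HSC/MF-like cells 4 of 21 were higher (Itga5, Itgb5, Cd36 and Cd44; 11.1% of all genes) and 1 lower (Itgb3; 6.61%), and in PF-like cells 9 of 22 were higher (17.2%) and 1 lower (7.35%). Itga8, an integrin subunit that binds fibronectin and tenascin-C, was 0.506 in normal and 7.22 in fibrosis PF-like cells, a ratio of 14.3 (9 to 24.1). Cd44, a hyaluronan receptor, was 0.240 and 1.02 in HSC/MF-like cells, a ratio of 4.23 (2.17 to 9.43), from 9 normal UMIs. Cd36, a thrombospondin receptor and fatty acid transporter, was 6.71 and 17.1 in LSEC-like cells, a ratio of 2.55 (2.48 to 2.63), and 1.75 and 10.7 in macrophage-like cells, a ratio of 6.13 (5.58 to 6.74), against 0.960 and 3.57 in lymphoid cells. The macrophage-like classes differed in make-up, Kupffer cell-like alone in normal and mostly scar-associated macrophage-like in fibrosis. In LSEC-like cells 6 of 20 receptors were higher (8.79% of all genes) and 3 lower (8.28%), and in macrophage-like cells 3 of 20 (7.33%) and 2 (10.1%). Lymphoid cells had 6 of 21 higher (9.42% of all genes), Cd36 and Itga8 among them, and 3 lower (8.78%).

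Of 26 further YAP/TEAD target and pathway genes, 4 of 23 were higher and 2 lower in HSC/MF-like cells, 4 of 22 and 1 in PF-like cells, 5 of 24 and 0 in LSEC-like cells and 3 of 21 and 2 in macrophage-like cells, and the list medians on the log2 scale were 0.02, 0.10, 0.13 and -0.15. The shares of all genes higher were 11.1%, 17.2%, 8.79% and 7.33% in these classes, and those lower 6.61%, 7.35%, 8.28% and 10.1%. Lymphoid cells had 4 of 21 of the list higher (9.42% of all genes) and 2 lower (8.78%). In cholangiocyte-like cells 3 of 24 were higher (5.52% of all genes) and 0 lower (5.66%). Tgfb2, which encodes a TGF-beta ligand, had the highest ratio in HSC/MF-like cells, 0.134 and 1.22 UMIs per 10000, or 9.11 (3.83 to 28.4). Of the 20 immediate early and dissociation response genes, 1 was higher (11.1% of all genes) and 3 were lower (6.61%) in HSC/MF-like cells and 5 higher (17.2%) and 2 lower (7.35%) in PF-like cells. Hspa1b, a heat shock gene, was 8.25 and 1.65 in HSC/MF-like cells, and Hspa1a was 5 and 0.435 in lymphoid cells.

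Over 30 groups (named classes of 50 cells or more in either library), the genes whose levels went most like those of a member were found among 5517 genes by Pearson's correlation of log2 levels. These groups share their library and its background, and the normal HSC/MF-like and PF-like cells, like the mesothelial-like cells of both libraries, were too few to enter. Sparc was most like Col4a1 (r = 0.967) and Col4a2 (0.967), which encode basement membrane collagen chains, and Serpinh1 (0.960), a collagen chaperone. Sparcl1 was most like Col6a1 (0.993), Col6a2 (0.990) and Pdgfrb (0.985), Postn like Gdf2 (0.989), Col5a1 (0.987) and Lamb1 (0.981), Tnc like Lama2 (0.985), Tbx20 (0.984) and Daam2 (0.979), and Thbs2 like Frzb (0.977), S1pr3 (0.973) and Ccdc3 (0.971). Ctgf was most like Spry1 (0.884) and Glis2 (0.840) and had Cyr61 in the third place (0.835), and Cyr61 was most like Glis2 (0.938), Pdgfd (0.923) and Ptpn21 (0.905). Vcan was most like Serpine2 (0.895), Svep1 (0.887) and Fhl2 (0.886). The first-ranked genes had lower correlations for Thbs1 (Anxa1, 0.817; Ptgfrn, 0.765; Ctsk, 0.756) and Fn1 (Vasn, 0.803; Bmp1, 0.798; Prnp, 0.778).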

How the data were processed

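Liver NPCs of 1 normal and 1 fibrosis mouse were measured by droplet scRNA-seq. The authors deposited UMI counts per gene and cell, without normalization; per the submitters' processing notes they used Cell Ranger 3.0.1 and the mm10 genome. The members, gene lists and marker lists were chosen with earlier results of these data known. The study's limits on cells were applied, namely more than 200 genes and less than 10% mitochondrial UMIs. Python 3.11.15, scanpy 1.11.5, numpy 2.4.6 and scipy 1.17.1 were used. Each library was clustered separately (2000 variable genes, 10 principal components, 20 neighbours, Leiden resolution 0.8), with the members and the 4 fixed lists held out. Mesenchymal and endothelial cells were clustered again. A cluster took the class with most markers among its 10 genes of highest fold (pseudocount of 0.2 UMIs per 10000), if at least 3 markers were raised; this pseudocount, and the use of all endothelial lists together, were set after a first version had left clusters unnamed. The methods name Scrublet for doublets. Whether it had been applied to the deposited tables, which still held cells outside the study's limits, is not known, and doublets were removed here only as an alternative. Calls of higher or lower are fold limits and no tests, and the script was tested on simulated data. A level against 0 counts was computed with 3 counts.

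Named genes were all 10 members; of each list, in a class, the genes at 1 UMI per 10000 or more with the highest or lowest ratio, of which some are given; and the 3 genes most like each member (log2 of UMIs per 10000 plus 0.1). A group was a class of 50 cells or more in 1 library. Genes listed in a count by name were given after their values were seen, as were the sub-cluster leading genes. Gene positions are from GENCODE for GRCm38 (mm10), where Ctgf and Cyr61 are named Ccn2 and Ccn1. Alternatives were the scale, the scaling, count minimums, the mitochondrial limit, doublet scores, clustering, high cells, the background and the fold limit.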

Additional observations from a re-analysis of the deposited data

Results flagged for a closer look

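Ctgf differed in direction between cell classes: its ratio of fibrosis over normal was 2.24 in HSC/MF-like and 4.72 in cholangiocyte-like cells, but 0.263 in PF-like and 0.0932 in central vein-like cells. The HSC/MF-like call did not hold in whole clusters, and the PF-like ratio was 0.639 counted per cell. The fibrosis levels of PF-like and central vein-like cells lay below that of erythroid-like cells. With 1 library per condition the difference in direction was not tested.

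The unnamed cluster of the fibrosis library, which entered no comparison because the normal library had no such cluster, had levels above those of lymphoid cells for 3 members: Fn1 at 97.5, Thbs1 at 3.98 and Vcan at 0.987 UMIs per 10000.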

How the results depend on the processing

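No paired analysis was possible because each group holds 1 library, and for the same reason no replicate could be left out. Of 138 recounts of members higher or lower, 103 stayed within 1.5 times of the value reported. HSC/MF-like cells had 1 lower member at a fold limit of 1.5 and in whole clusters. PF-like cells had 7 higher and 0 lower counted per cell, 2 and 2 at resolution 1.5, 2 lower at a fold limit of 1.5, and 3 lower without the Fndc1-led sub-cluster, where the Fn1 ratio was reversed at 0.501. That removal took cells from the fibrosis library alone, and the normal cells with most Fn1 UMIs stayed in. Macrophage-like cells had 4 higher with a minimum of 100 UMIs or a mitochondrial limit of 5%, 5 in Kupffer cell-like clusters alone, and 2 higher and 1 lower with the lymphoid level subtracted, which reversed Postn to 0.2045. LSEC-like cells had 3 higher with a minimum of 100 UMIs or at resolution 1.5, 2 with a mitochondrial limit of 5% or at resolution 0.4, and 0 higher and 1 lower with the lymphoid level subtracted, which reversed Thbs1 to 0.7095. Hepatocyte-like droplets had 4 higher counted per cell or with no minimum, 8 with a mitochondrial limit of 5%, 2 at a fold limit of 1.5 or at resolution 1.5, 0 with a minimum of 100 UMIs, and 0 higher and 1 lower with the lymphoid level subtracted. With the erythroid-like level subtracted, HSC/MF-like cells had 1 lower, PF-like cells 2 lower, macrophage-like cells 1 higher and 1 lower, LSEC-like cells 0 higher and 3 lower and hepatocyte-like droplets 0 higher and 2 lower, with Postn reversed to 0.2021 in macrophage-like and Sparcl1 to 0.7912 in LSEC-like cells. Apart from these 5 ratios, 134 of 461 recomputed ratios left their counting interval without a called one crossing 1. The causes were not tested. The Fndc1-led, erythroid-like, Kupffer, haemoglobin-led, zone-named and deeper hepatocyte alternatives were chosen after seeing the data. At a mitochondrial limit of 5% the normal library had no HSC/MF-like or PF-like cells, and no whole normal cluster was named PF, so that these were not run. The precision is limited by the 1 library per condition and, within the normal library, by the 47 HSC/MF-like and 44 PF-like cells.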

Other observations

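Cholangiocyte-like cells (234 normal and 90 fibrosis cells), the epithelium of bile ducts, held 42.1% of the normal and 36.6% of the fibrosis library's Cyr61 UMIs. Cyr61 was 5.37 (5.11 to 5.63) and 10.2 (9.76 to 10.7) UMIs per 10000 there, a ratio of 1.90 (1.78 to 2.04). Ctgf was 1.02 (0.907 to 1.13) and 4.79 (4.48 to 5.12), a ratio of 4.72 (4.14 to 5.39), and 3 of the 90 fibrosis cells held 31.4% of it. Ankrd1, another YAP/TEAD target, was 1.42 and 6.69, a ratio of 4.70 (4.21 to 5.25), but 3 of 24 genes of that list were higher in these cells (5.52% of all genes) and 0 lower (5.66%), with a list median of 0.22 on the log2 scale against 0.06 for all genes. The 20 immediate early and dissociation response genes summed to 118.8 and 119.9. Fn1 was 4.28 and 8.27 in these cells, a ratio of 1.93 (1.79 to 2.08), and Thbs1 was 0.0705 and 0.727, of which 3 fibrosis cells held 44.3%.

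Mesothelial-like cells had Cyr61 at 5.68 (5.07 to 6.34) and 4.07 (3.66 to 4.52), a ratio of 0.716 (0.614 to 0.836), and no UMI of Tnc, Postn, Sparcl1 or Thbs2 in the 45 normal cells.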
